A study of Drosophila melanogaster with 4 samples.

Results

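The head patterning genes oc, btd, ems, D and cnc were followed through single Drosophila melanogaster embryos. They were chosen by symbol, 5 of the 17807 genes with raw counts. All 5 are also among the 7367 genes of the authors' normalized table, and 4 of them, all but btd, are among the 2453 genes with separate maternal and paternal values. The embryos were hybrids of DGRP_737 virgin mothers and DGRP_352 fathers, both inbred wild-derived lines. They were kept at 25 °C and 60% humidity with 12 h of light and collected at up to 3 h of age. The authors placed 245 of them, together with 8 unfertilized eggs, in a pseudotime order computed from the same transcriptomes. Names of embryos begin with E1 (74 embryos), E2 (99) or E3 (72), and the labels do not state what the digit means. No mutant or treated embryo is included. Every value comes from a whole embryo, so positions within the embryo were not measured, and fewer cells expressing a gene cannot be told apart from less RNA per cell.

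In the fly blastoderm the head is laid down by factors that respond to maternal anterior signals such as Bicoid and the terminal Torso pathway. oc (orthodenticle, a homeodomain factor), btd (buttonhead, a zinc finger factor of the Sp family) and ems (empty spiracles, a homeodomain factor) are the head gap genes, transcribed in overlapping bands across the future head. cnc (cap-n-collar, a bZIP factor) specifies mandibular and labral structures, and D (Dichaete, a Sox factor with an HMG box) acts in segmentation, in the head and in the nervous system. oc lies at X:8630159-8650681 on the minus strand and btd at X:9694186-9697558 on the plus strand. ems lies at 3R:13901853-13904620 (plus), D at 3L:14175610-14178620 (minus) and cnc at 3R:23185580-23226711 (minus), in the coordinates of the BDGP6.54 annotation. The annotation nests fzo inside cnc and lets Irk1 and CG46310 overlap its end by 63 bases. These neighbours held 1, 2 and 0 UMIs over the whole order, so they add next to nothing to the count of cnc.

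Levels are given in CPM, the UMIs of a gene per 1000000 UMIs of that embryo. For description the order was divided into bins 1 to 4, of ranks 1 to 61, the next 61, the next 62 and the last 61 embryos. Embryos held between 163287 and 1802671 UMIs, with a median of 735503. The median was 907317 in bin 1 and 568460 in bin 4, so depth was lower at the late end. Libraries 1 to 4 gave 71, 53, 66 and 55 embryos. Names E1, E2 and E3 had median ranks of 37.5, 116 and 189.5. Of the E1 embryos, 8 stood beyond bin 2, at rank 136 and between ranks 236 and 244, apart from the other 66. Follicle and chorion genes were near absent, with a summed level of at most 9.80 CPM over 12 genes. Of the cellularization genes, Sry-alpha was at 0, while nullo, bnk and slam summed to a median of 1029 CPM in bin 3 and 7.89 CPM in bin 4.

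oc, btd, ems and D each had far lower means in bins 1 and 2 than in bins 3 and 4, and D already rose within bin 2. cnc did the opposite: its RNA was loaded in the egg and was lower in late embryos. oc had 2.16 CPM ± 1.73 (SD, n = 8) in eggs and 2.38 ± 2.14 (n = 61) in bin 1. It had 4.73 ± 5.24 (n = 61) in bin 2, 183.95 ± 121.8 (n = 62) in bin 3 and 176 ± 79.5 (n = 61) in bin 4. Its lowest, median and highest values were 0, 2.01 and 8.89 CPM in bin 1 and 49.5, 153 and 382 CPM in bin 4, so these bins did not overlap. The order was made from the same RNA, so overlap of bins is a description, here and for the other members. The share of all genes without overlap was not computed. The mean of oc in bin 3 was 38.9 times that of bin 2.

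btd was the member with the fewest UMIs. The 8 eggs held 1 UMI between them, and bins 1 to 4 had 0.23 ± 0.68, 0.60 ± 1.20, 14.2 ± 11.2 and 16.8 ± 10.4 CPM. In bin 1, 52 of 61 embryos had no UMI of btd and the highest had 4.05 CPM. In bin 4 every embryo had at least 1 UMI, with a lowest level of 1.81, a median of 16.4 and a highest of 45.3 CPM, so these bins overlapped at their edges.

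ems had 1.14 ± 1.51 CPM in eggs and 1.42 ± 1.42, 1.84 ± 1.86, 91.0 ± 63.3 and 134 ± 99.4 CPM in bins 1 to 4. Bin 3 was 49.3 times bin 2. Its lowest, median and highest levels were 0, 1.18 and 6.96 CPM in bin 1 and 39.5, 89.7 and 463 CPM in bin 4, without overlap.

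D, like oc and ems, had a few UMIs in eggs. Its mean in bin 2 was 3.96 times that of bin 1, against 1.98 for oc, 2.61 for btd and 1.29 for ems. D had 3.75 ± 3.15 CPM in eggs, 4.56 ± 2.57 in bin 1 and 18.1 ± 20.2 in bin 2, followed by 441 ± 266 and 362 ± 115. Within bin 2, the mean was 5.50 ± 5.52 CPM (n = 30) in ranks 62 to 91 and 30.2 ± 21.9 CPM (n = 31) from rank 92 on. The lowest embryo of bin 4, at 132 CPM, lay above the highest of bin 1, at 12.1 CPM.

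cnc stood at 859 ± 115 CPM in eggs, 949 ± 134 in bin 1 and 1006 ± 137 in bin 2. It had 464 ± 262 in bin 3 and 382 ± 65.7 in bin 4, so bin 3 was 0.461 of bin 2. Eggs ran from 733 through a median of 831 to 1097 CPM, within the span of bin 1, 674 to 1270. Every embryo of bin 4, at 234 to 545 CPM, lay below every embryo of bin 1. High counts are compressed by the number of UMIs, 4096 if they have 6 bases as the highest count in the files, 4092, gives. cnc reached 1824 UMIs in 1 egg, and correction for UMIs shared by different molecules took the ratio of bin 4 to bin 1 from 0.403 to 0.353.

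**Figure D1:**
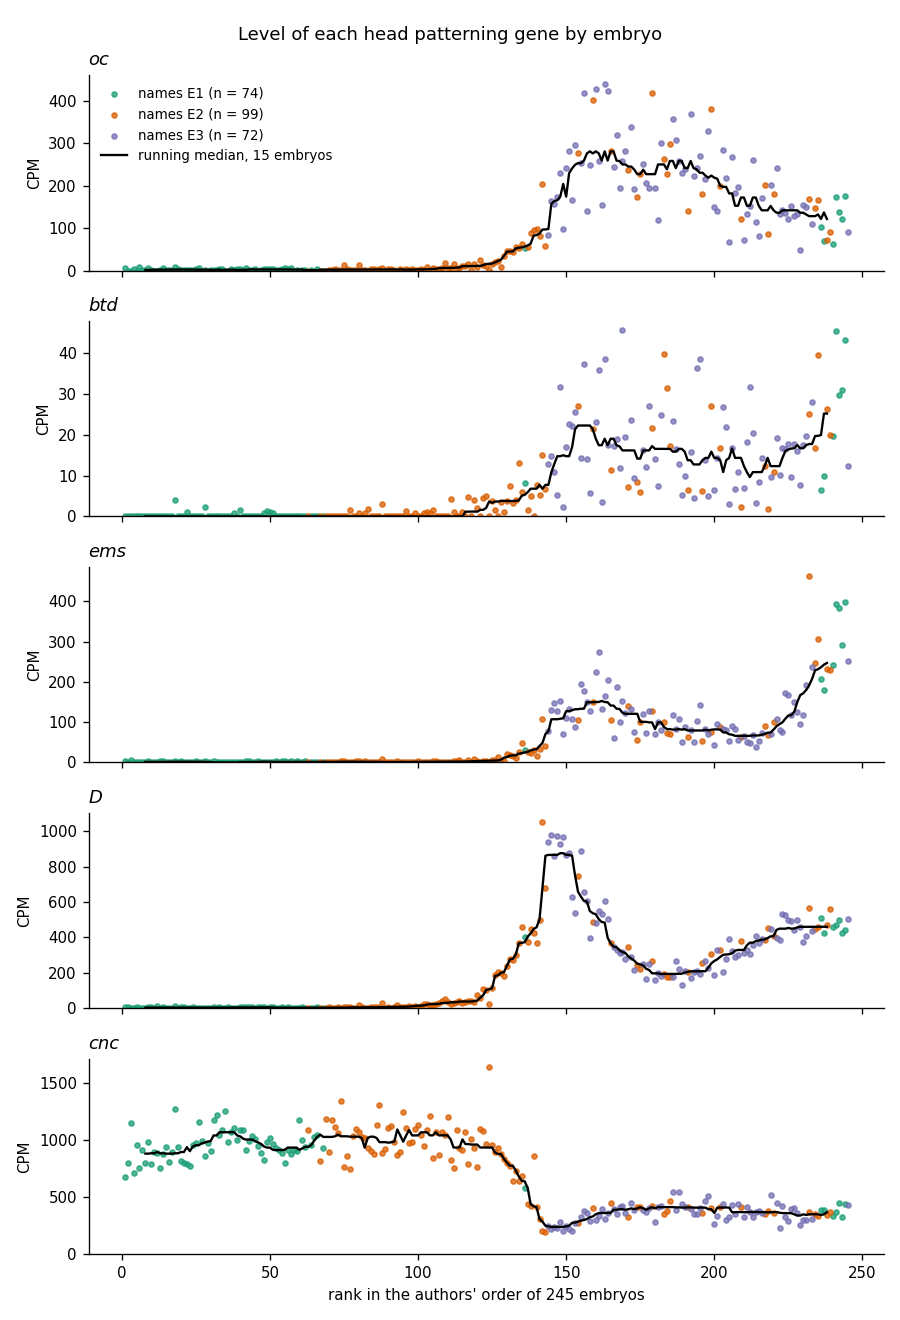
Level (CPM, linear axis from 0) of each of the 5 genes against rank in the order of 245 embryos, with points coloured by the first characters of the embryo's name and a black running median over 15 embryos. oc, btd, ems and D stay near 0 up to about the middle of the order and D peaks at a running median of 875 CPM at rank 148, while cnc drops from a highest running median of 1094 CPM at rank 93 to a low of 240 CPM at rank 145.

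Spearman's rho of level with rank was 0.80 for oc, 0.83 for btd, 0.82 for ems, 0.83 for D and -0.72 for cnc over 245 embryos. The order was built from the same RNA, so these are descriptions. Of the 5 genes, 4 counted as rising (rho of at least 0.5) and 1 as falling (-0.5 or less). Among all 7377 genes with a mean of at least 1 CPM, 21.8% counted as rising and 39.1% as falling, with a median rho of -0.29. Within single libraries rho lay between 0.74 and 0.88 for the 4 rising genes and between -0.76 and -0.64 for cnc. Within bins 3 and 4 alone, rho was 0.07 for oc, 0.37 for btd, 0.47 for ems, 0.10 for D and -0.19 for cnc, so most of the trend lay in the step at mid-order.

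The onsets of the 4 genes lay within 11 ranks of each other, with D ahead. The onset rank is the centre of the first 15 consecutive embryos whose median reaches 0.5 of the highest such median. It was 139 for D, 145 for oc, 146 for btd and 150 for ems. The highest running median lay at rank 148 for D and 158 for oc, but at 237 for btd and 238 for ems. The rank of ems thus refers to its late high of 247 CPM. Its running median was 77.2 CPM at rank 144, beside a first peak of 153 CPM at rank 162. Leaving out a library moved the onset rank to 133 to 140 for D, 143 to 147 for oc, 144 to 147 for btd and 148 to 153 for ems. With a window of 9 embryos it was 141 for D, 147 for ems, 148 for btd and 150 for oc, so the order of oc, btd and ems is not resolved. Within libraries 1 to 4 the onset of D was 144, 138, 127 and 132, that of ems 144, 146, 143 and 141, and that of oc 148, 140, 143 and 160. That of btd ran from 136 to 168. D was first or level with ems in each library, and ems came later than both oc and btd in none. cnc passed downward through 0.5 of its highest running median at rank 138, and between 138 and 139 with any library left out. The lowest running median of cnc, 240 CPM at rank 145, fell beside the peak of D at rank 148.

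Embryo by embryo, after each was thinned to 160000 UMIs, D was present with at least 3 UMIs in 149 embryos, oc in 127, ems in 112 and btd in 53. D without oc was seen in 25 embryos and oc without D in 3. oc without ems was seen in 15 embryos and ems without oc in none. D without ems was seen in 37 and ems without D in none. btd, with low counts, lacked 3 UMIs in 60 embryos that had ems, and the reverse held in 1. The bound of 3 UMIs is reached sooner by the more abundant gene, and D had the highest and ems the lowest mean of these 3 in bin 3, so the counts do not order the genes in time. Single embryos passed it early, the first at rank 6 for oc and rank 12 for D.

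**Figure D2:**
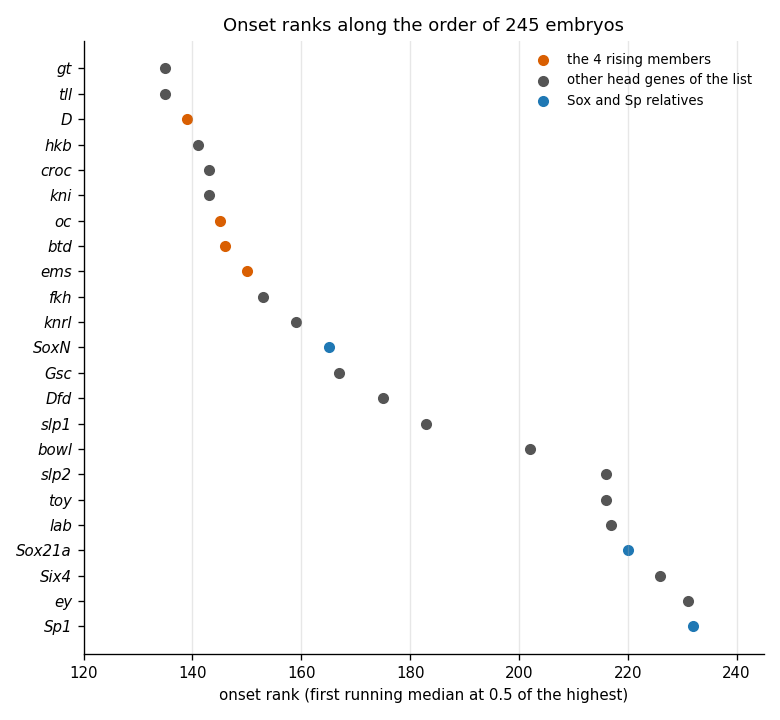
Onset rank (horizontal axis, rank among 245 embryos) of the 4 rising genes, of other head genes and of Sox and Sp relatives, 1 point per gene, earliest at the top. D, oc, btd and ems, at ranks 139 to 150, stand among gt, tll, hkb, croc, kni and fkh. Dfd at 175 and slp1 at 183 reach the set fraction of their own highest level later, which does not date their first RNA.

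Other regulators of the head had onsets spread over a far longer stretch, some at mid-order and some only near the end. Of 18 further head genes, 16 had enough signal, 15 counted as rising and 1, hb, as falling, with a median rho of 0.77. The gap genes tll and gt had onset rank 135, hkb 141, and croc and kni 143. The fork head gene fkh had rank 153, knrl 159, the homeobox gene Gsc 167, the Hox gene Dfd 175 and the segmentation gene slp1 183. The onset rank is set by the highest level of each gene, so a late high moves it later than the first RNA. Thus slp1 already had 19.5 ± 14.0 CPM in bin 2 and 111 ± 62.7 in bin 3, before its highest running median of 446 CPM at rank 211. The eye gene toy and slp2 had 216, the Hox gene lab 217, Six4 226 and the eye gene ey 231. toy had 2.18 ± 2.91 CPM in bin 3 and 40.8 ± 24.9 in bin 4, and lab 1.27 ± 1.51 and 27.2 ± 16.8 CPM, so these had little RNA at mid-order. Among the relatives of the members, the Sox gene SoxN had onset rank 165 against 139 for D, Sox21a had 220, and the Sp gene Sp1 had 232 against 146 for btd. The ems paralogue E5 never reached a running median above 0.

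Of 10 genes that set up or transduce the anterior and terminal signals, 9 had enough signal, 2 counted as rising, 6 as falling and 1 as neither, with a median rho of -0.65. bcd, the anterior morphogen RNA, had a rho of -0.65, and exu and swa, which localize it in the oocyte, had -0.93 and -0.77. The receptor gene tor had -0.68, and its ligand gene trk -0.84. zld, the pioneer factor of zygotic genome activation, had 0.82. stau had 0.69 in CPM and 0.07 in the authors' normalized values.

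The genes most similar to each member were sought by Spearman's rho of CPM across the 245 embryos among 4788 candidates. All of these values include the step at mid-order. For oc they were sog, a BMP antagonist (0.92), kni, a gap gene (0.91), and Nrt, a cell adhesion protein (0.90). For btd they were lncRNA:roX1 (0.87), a dosage compensation RNA, the axon guidance receptor robo2 (0.87) and tna (0.86). For ems they were the BMP ligand dpp (0.89), the nesprin Msp300 (0.87) and l(3)neo38 (0.87). For D they were Notum, which inactivates Wnt ligands (0.91), upd1, a JAK/STAT ligand (0.90), and dpp (0.89). For cnc they were phol, a Polycomb response element binding protein (0.88), the kinase subunit gene CkIIalpha (0.86) and X11L (0.85). Between members, oc and btd had 0.86, ems and btd 0.86, and oc and D 0.79.

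After mid-order the members went separate ways. The running medians of D, ems and, at low counts, btd were high, then low, then high again. oc had a single broad high, and cnc rose in part from its low. The running median of D was 875 CPM at rank 148, 194 at rank 182 and 460 at rank 235. That of ems was 153 CPM at rank 162, 66.0 at rank 207 and 247 at rank 238. btd had 22.2 CPM at rank 154, 9.63 at rank 212 and 25.2 at rank 237. oc reached 281 CPM at rank 158 and ended at 121.5 CPM, passing below 0.5 of its highest value at rank 221. cnc went from its low of 240 CPM at rank 145 to 413 CPM in bin 4 and ended at 369 CPM.

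Each bin was also divided in 2, which gave bins 3a (up to rank 153, n = 31), 3b (n = 31), 4a (up to rank 214, n = 30) and 4b (n = 31). D had 508 ± 316, 373 ± 187, 265 ± 72.8 and 456 ± 53.1 CPM in these 4. Of the 31 embryos of bin 4b, 25 exceeded the highest of the 30 of bin 4a and all 31 exceeded their median. ems had 52.5 ± 49.9, 129 ± 51.1, 74.9 ± 23.4 and 191 ± 111 CPM. For ems, 18 of the 31 exceeded the highest of bin 4a, and 28 its median. For oc, with 98.2 ± 83.1, 270 ± 89.9, 220 ± 84.0 and 134 ± 45.2 CPM, 1 of the 31 exceeded the median of bin 4a. btd, at 8.62 ± 8.13, 19.7 ± 11.3, 14.8 ± 9.98 and 18.7 ± 10.6 CPM, changed by less than its spread after rank 153.

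The last high of D and ems was present in each library. Mean D went from 251 to 482 CPM in library 1, 216 to 445 in library 2, 290 to 459 in library 3 and 282 to 442 in library 4 between bins 4a and 4b. Mean ems went from 74.4 to 218, 72.8 to 192, 73.6 to 173 and 78.7 to 183.8 CPM. The first peak of D could not be compared in this way, since the libraries held different ranks of bin 3a. There, libraries 1 to 4 had a mean D of 809, 706, 445 and 273 CPM over 6, 5, 11 and 9 embryos. In library 4, bin 3b was higher, at 346 CPM. cnc had 342, 303, 567 and 821 CPM in the same embryos of bin 3a. All library 4 embryos of bin 3a stood at rank 141 or earlier, before the highest running median of D at rank 148. Most of those of library 1 stood at rank 144 or later. These means thus differ in rank as well as in library, and a difference between libraries at equal rank was not tested. Of 6 markers of differentiated tissue, 5 had enough signal. The neuronal gene elav was the 1 that counted as rising (rho 0.79), and the other 4 counted as neither. All 6, elav included, summed to a median of 47.8 CPM in bin 3 and 139 CPM in bin 4. Their part in the late levels was not tested.

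**Figure D3:**
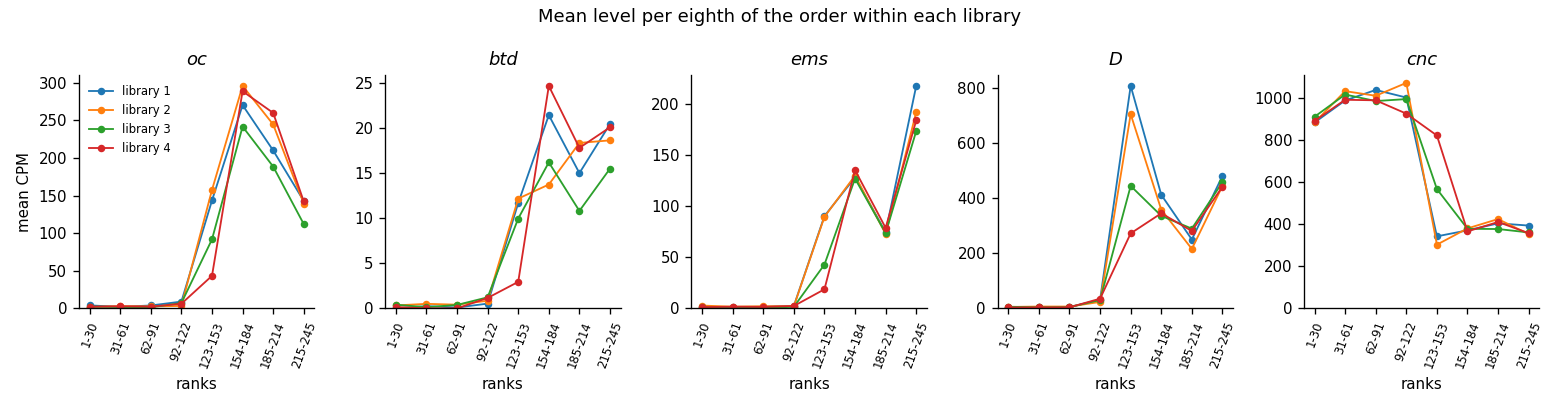
Mean CPM (linear axis from 0) of each gene in 8 consecutive stretches of ranks, 1 line per library, each point the mean over the embryos of that library in the stretch. From bin 4a, the stretch that ends at rank 214, to bin 4b, D and ems are higher and oc is lower in all 4 libraries.

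The names E1, E2 and E3 use no rank, and embryos of the order were compared by name with single embryos as the replicates. These embryos were themselves selected by the authors' order, which matters for the comparison of E2 with E1. The names also carry a letter, A, B or C, after the digit, which was not modelled. The adjusted p values therefore assume that embryos of the same letter are independent. All 5 genes differed between E3 and E2, and oc, btd and D between E2 and E1. oc had lowest, median and highest levels of 0, 2.32 and 175 CPM in E1, 0, 10.5 and 418 in E2 and 49.5, 200 and 439 in E3. D had 0, 4.48 and 510 CPM in E1, 0, 38.7 and 1052 in E2 and 132, 373 and 980 in E3. btd had medians of 0, 1.21 and 16.1 CPM and ems of 1.36, 3.62 and 102 CPM. cnc had 325, 923 and 1270 CPM in E1, 197, 879 and 1643 in E2 and 202, 362 and 545 in E3. The groups overlap for every member, since some embryos of each name stand late in the order.

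In the quasi-likelihood test of edgeR, oc rose by a log2 fold change of 2.43 ± 0.37 (SE) from E1 to E2 (adjusted p = 1.60e-09, edgeR) and D by 1.61 ± 0.36 (3.58e-05). btd rose by 1.08 ± 0.35 (adjusted p = 0.00399, edgeR), a call that was lost without library 3, where it was 0.70 with an adjusted p of 0.144. ems differed by 0.39 ± 0.41 (0.391) and cnc by -0.10 ± 0.07 (0.199), which did not pass. So 3 of 5 were called higher and none lower, beside 39.2% and 29.7% of the 5985 genes tested. The ratio of mean levels within libraries 1 to 4 was above 0 on the log2 scale in all 4 for oc (1.57 to 3.19), D (0.67 to 2.32) and btd (0.10 to 2.11). For ems it was -0.66, 1.14, 1.92 and -0.48.

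These values depend on the 8 late E1 embryos, which had 403.6 to 510 CPM of D and 31.8 to 397 CPM of ems, whereas the other 66 E1 embryos had at most 12.1 and 6.96 CPM. Without those 8 the log2 fold changes from E1 to E2 were 5.12 for oc, 4.07 for btd, 4.87 for ems and 5.40 for D, and ems passed the test (adjusted p = 4.79e-25, edgeR). cnc then passed as well, at -0.17 (adjusted p = 0.0191). The rise also depends on which embryos the authors placed in the order. With the 39 E1, 15 E2 and 20 E3 embryos left outside it that had at least 100000 UMIs, the log2 fold changes from E1 to E2 were 0.26 for oc (adjusted p = 0.450, edgeR), 0.54 for D (0.0945), 0.62 for btd (0.0494), -0.82 for ems (0.0208) and 0.09 for cnc (0.184). So oc and D were then not called, and ems was lower.

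From E2 to E3, oc rose by 1.79 ± 0.32 (adjusted p = 1.22e-07), btd by 1.95 ± 0.30 (9.33e-10), ems by 1.67 ± 0.38 (2.45e-05) and D by 1.51 ± 0.34 (2.29e-05) on the log2 scale, and cnc fell by 0.78 ± 0.07 (6.24e-23), all by edgeR. With the embryos outside the order added, these were 1.70, 1.70, 1.55, 1.39 and -0.50, and all 5 calls held. In the embryos of the order 4 of 5 were called higher and 1 lower, where 43.1% of all genes were higher and 44.2% lower. Both comparisons use the E2 embryos. Of the 15 other head genes tested, 10 were higher and none lower from E1 to E2 (median log2 fold change 1.61, against 0.09 over all genes). From E2 to E3, 14 were higher and 1, hb, lower (median 1.68, against -0.02). Among the inputs, bcd fell by 4.11 ± 0.24 from E2 to E3 (adjusted p = 6.62e-42, edgeR). With the size factors of DESeq2 the splits were 1675 higher and 2133 lower in place of 2349 and 1778 from E1 to E2, and 2190 and 3107 in place of 2578 and 2646 from E2 to E3. The median over all genes moved from -0.02 to -0.23 in the latter comparison. The interaction of name group with library, called in 5.43% of genes, passed for no member, with adjusted p from 0.360 to 0.707 (edgeR).

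The parental values can date RNA of the father's allele only for a gene without paternal calls in unfertilized eggs. D and ems had such calls in eggs, whereas cnc and oc had none. For cnc the called RNA was maternal alone up to mid-order and biparental thereafter. The authors' maternal value of cnc was above 0 in all 8 eggs, with a lowest of 2, a median of 7 and a highest of 17, and its paternal value was 0 in all 8. The paternal value was 0 in every embryo of bins 1 and 2 as well, over a summed maternal value of 1208. It was first above 0 in a single embryo, at rank 135 with a value of 3, was 0 at every rank from 136 to 144 and was 3 again at rank 145. The fall of total cnc lay at rank 138 in CPM and at rank 134 in the deposited scores, before the paternal values that recurred from rank 145 on. Whether it also came before the isolated value at rank 135 is not resolved. The paternal value reached 0.5 of its highest running mean at rank 152. Its mean was 1.13 ± 2.09, 6.29 ± 4.31, 5.30 ± 2.76 and 7.23 ± 5.25 in bins 3a to 4b. The maternal mean was 9.87 ± 4.44 from rank 92 to the end of bin 2, 6.74 ± 5.92 and 5.90 ± 2.83 in bins 3a and 3b, and 8.42 ± 3.90 in bin 4b.

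**Figure D4:**
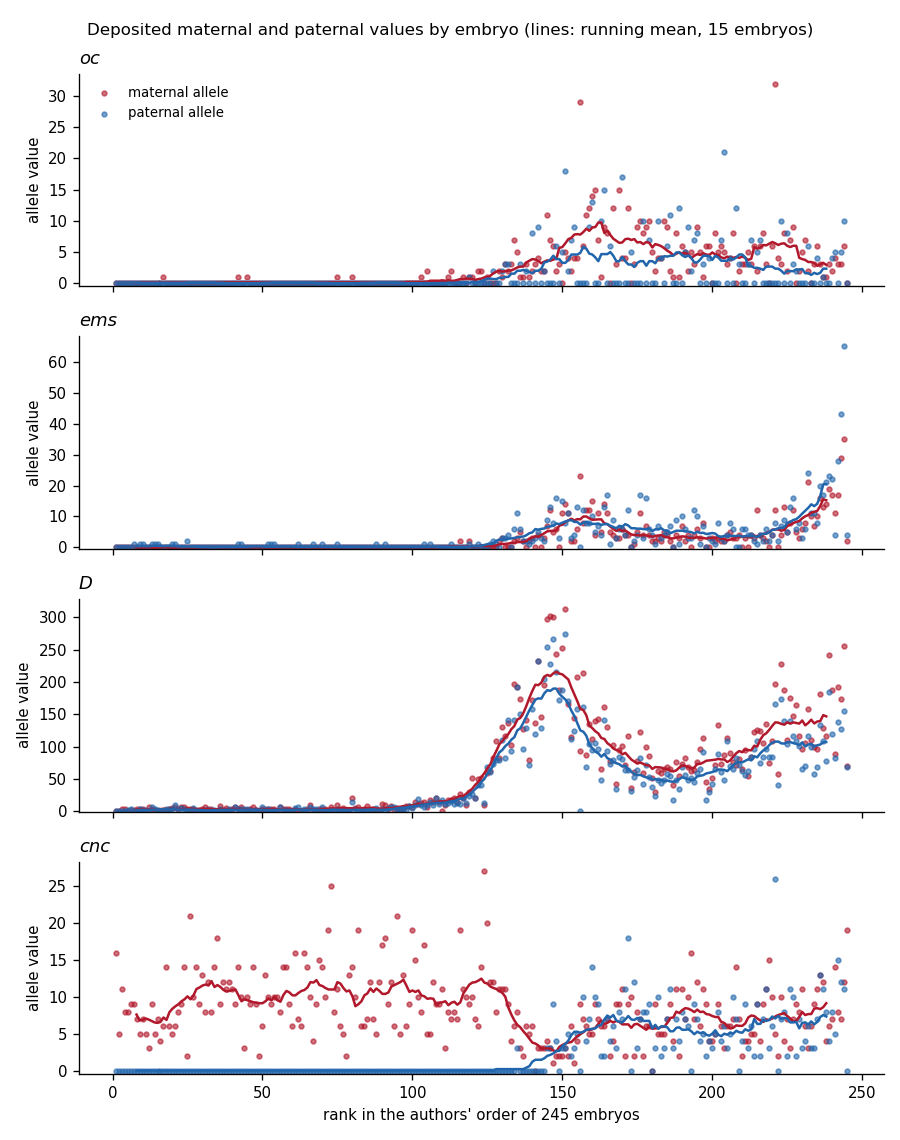
Deposited maternal (red) and paternal (blue) allele values of oc, ems, D and cnc against rank, 1 pair of points per embryo, with running means over 15 embryos. Paternal cnc is 0 before rank 135, both alleles of D follow the same peak and dip, and the embryo at rank 156 has a paternal value of 0 for all 4 genes.

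Both alleles of D went through the peak, the dip and the second high. The maternal mean of D was 158 ± 80.3, 98.5 ± 45.6, 76.5 ± 23.3 and 141 ± 50.9 in bins 3a to 4b, and the paternal mean was 140 ± 69.3, 73.5 ± 37.8, 60.4 ± 21.4 and 106 ± 35.6. In the last 61 embryos the maternal value had a lowest of 34, a median of 97 and a highest of 255, with a mean of 109 ± 51.0. The paternal value had a lowest of 17, a median of 74 and a mean of 83.7 ± 37.3. The paternal share of the summed value was 43.4%, and the maternal value was higher in 57 embryos and the paternal in 3. A two-sided sign-flip permutation test over the 61 embryos gave an adjusted p of 1.83e-05, from the smallest p its 100000 resamples allow. In eggs the share was 25%, from 8 of 32 in the summed value, so the calls for D give some paternal value without fertilization. These eggs held 22 UMIs of D, fewer than that sum, so the allele values of D are not counts of molecules.

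ems leaned the other way. In the last 61 embryos its maternal values had a lowest of 0, a median of 4 and a highest of 35, and its paternal values 0, 6 and 65. The paternal share was 56.7%, the paternal value was higher in 36 embryos and the maternal in 17, and the permutation test gave an adjusted p of 0.00228. Early in the order, however, paternal values alone were called: 14 of the first 61 embryos and 1 of 8 eggs had one, with a mean of 0.246 in those embryos, while the maternal value was 0 in every egg and in ranks 1 to 91. In the rest of bin 2 the maternal value was above 0 in 2 of 31 embryos and the paternal in 5. Of the 2062 genes tested, the paternal value was higher in 9.02% and the maternal in 70.1%, so the direction of D was common and that of ems rare among them. These genes were not limited to autosomal genes or to genes silent in eggs: stau, with 209 CPM in eggs, and the X-linked oc were among them. Over 2102 autosomal genes without the members, the median paternal share of the same 61 embryos was 27.7%. The percentages for genes silent in eggs alone were not computed. The share of cnc in the last 61 embryos, 44.7%, missed the threshold (adjusted p = 0.0559, permutation). It was 42.0% without library 3 (adjusted p = 0.00841) and 48.9% in embryos above 500000 UMIs (0.749).

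oc is X-linked, and its share followed the X chromosome of each embryo. Males inherit their only X from the mother, whereas females have an X from each parent. In the last 61 embryos the maternal value of oc had a lowest of 0, a median of 3 and a highest of 32, and the paternal value 0, 0 and 21. The paternal share was 41.7%, which missed the threshold (adjusted p = 0.170, permutation). The paternal share of the other 347 X-linked genes separated the embryos. It was 0.423% to 0.958% in 25, within the egg range of up to 1.18%, 2.80% to 4.85% in 3, and 10.9% to 44.4% in 33. Paternal oc was 0 in all of the first 28 and above 0 in 30 of the 33, where its share was 61.01% (194 paternal against 124 maternal). The level of oc was 49.5 to 309 CPM with a median of 141 in the 25 embryos and 63.0 to 382 CPM with a median of 172 in the 33. That of btd, X-linked too, was 1.81 to 29.8 with a median of 12.2 CPM against 2.42 to 45.3 with a median of 17.8 CPM. These spans overlap widely, and no test was run, since the embryos were grouped from the data.

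**Figure D5:**
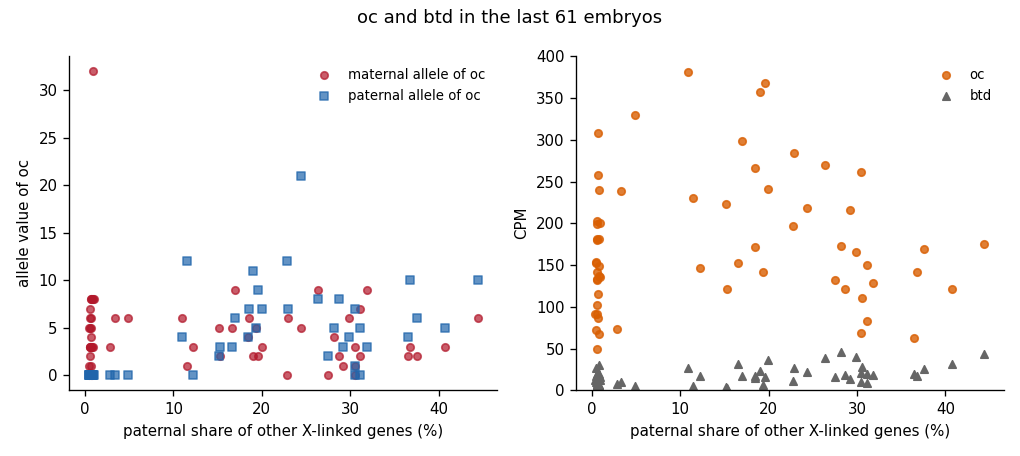
Each of the last 61 embryos by the paternal share of its other X-linked genes (horizontal axis, percent): left, the maternal and paternal allele values of oc; right, the CPM of oc and btd. Paternal oc is 0 in the 28 embryos at shares of 4.85% or less and above 0 in 30 of the 33 others.

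The embryo at rank 156 had high levels of oc, ems and D and a paternal share like that of an egg. It had 418 CPM of oc, 178 of ems and 658 of D, and 376 of cnc, near the bin 3b mean of 373 ± 48.2. It had maternal values of 29, 23, 94 and 9. Its paternal values were 0 for all 4 genes. In the other 30 embryos of bin 3b, paternal D was above 0 in all, from 24 to 161, paternal ems in 29 and paternal cnc in 28. Paternal oc was above 0 in 12 of the 30, so its value of 0 was common. Over 2102 other autosomal genes its paternal share was 0.737%, within the egg range of 0.511% to 1.32%, against 5.88% to 32.3% in those 30 embryos. It is named E3 and lies outside the embryos tested for parental share.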

How the data were processed

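RNA of single embryos and eggs was measured by CEL-Seq2, scaled down, with unique molecular identifiers (UMIs) in 4 multiplexed libraries, per the labels. The deposited raw values are UMI counts for each gene in each barcode, from STARsolo per the file names. Trim Galore 0.6.10, SAMtools 1.17, Picard, GATK 4.4.0.0 and R 4.2.1 are named in the submitters' processing notes, and how each was set is not given in the sources used here. The series tables, with and without alleles, hold whole-number scores that the authors normalized by a method not stated in the labels, with 0.1 read here as 0. Because their scaling is not a single factor per individual, CPM from raw counts was used for levels, with the normalized scores as an alternative. Allele values rest on known biallelic variants within a single gene, per the labels.

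Spike-ins (92, 0.0614% of UMIs) were left out. Individuals were matched to libraries by the authors' barcode table, 384 value columns outside it were not used, and 131 individuals outside the order enter no comparison except an alternative with the 74 deeper embryos among them. Name groups were compared with edgeR 4.0.16 (quasi-likelihood, TMM, filterByExpr, library as a covariate, adjusted p under 0.05), checked on simulated data, with DESeq2 1.42.0 as an alternative. Parental values were compared by sign-flip permutation with Benjamini-Hochberg adjustment over 2062 genes. Levels, ranks and rho are descriptions, with libraries treated as technical batches. Named genes are the 5 members, the 3 genes most similar to each (chromosomes X, 2L, 3L, 3R and 4, mean of at least 5 CPM) and genes of the head, input and relative lists; elav, the cellularization genes and the neighbours of cnc are named as checks only. Members and lists were chosen with earlier results of these data known. No gene or promoter sequence was used here.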

Additional observations from a re-analysis of the deposited data

Results flagged for a closer look

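Embryos that the authors left outside the order, among those with at least 100000 UMIs, had members well above the highest egg of the order, 5.55 CPM for oc, 0.483 for btd, 3.60 for ems and 10.8 for D. Among 39 such embryos named E1, the medians were 125 CPM for oc, 3.39 for btd, 151 for ems and 192 for D. Among 15 named E2 they were 47.1, 1.70, 25.2 and 48.0 CPM, and among 20 named E3 they were 110, 2.68, 92.5 and 148 CPM, in the same order of genes. The neuronal gene elav had medians of 312, 107 and 227 CPM in these 3 groups, against 1.58, 2.40 and 62.6 CPM in the embryos of the same names inside the order.

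The flags for a value far from its group were 3 in 34 groups checked, and chance flags about 1 in 20. The egg with the highest btd had 0.483 CPM, which is 1 UMI, and the egg with the highest D had 10.8 CPM, which is 3 UMIs in the shallowest egg. The rho of btd with rank was highest in library 4, at 0.86, against 0.80 to 0.81 in the other libraries.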

How the results depend on the processing

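Of 257 recomputed values, 230 kept their direction and their side of the threshold, moved by less than the spread between libraries or, for counts of genes, stayed within a fixed fold of the main count. The DESeq2 counts are therefore among the 230, although from E1 to E2 they gave more genes lower than higher. The log2 fold change of ems from E1 to E2 turned to -0.20 without library 3, and reached 4.87 without the 8 late E1 embryos, an alternative chosen after seeing the data. That of cnc passed the threshold at -0.20 with DESeq2, -0.17 without those 8 embryos and -0.27 without library 1. With the embryos outside the order added, also chosen after seeing the data, the E1 to E2 values were 0.26 for oc and 0.54 for D, which missed the threshold, -0.82 for ems and 0.094 for cnc. With a library left out, the E1 to E2 values ranged from 2.11 to 2.65 for oc, 0.70 to 1.37 for btd, -0.20 to 0.86 for ems, 1.30 to 1.99 for D and -0.27 to -0.033 for cnc. Those from E2 to E3 ranged from 1.64 to 1.87, 1.73 to 2.20, 1.48 to 2.05, 1.30 to 1.78 and -0.92 to -0.74. The counts of genes higher and lower ranged from 1592 to 2291 and 1595 to 2073 from E1 to E2, and from 2199 to 2533 and 2590 to 2849 from E2 to E3. Without the filter on low counts 4474 genes were higher from E2 to E3. The onset of ems moved to 147 and 146 with windows of 9 and 25 embryos, to 143 at 0.25 of the highest running median and to 153 with the deposited scores, and ranged from 148 to 153 with a library left out. At 0.25 the onset of D was 130 and the fall of cnc 143, and with deposited scores the fall of cnc was 134. Deposited scores gave 999 rising genes in place of 1611. With UMI collisions corrected, also chosen after seeing the data, the means of bin 4 were 149 (oc), 13.9 (btd), 113 (ems), 310 (D) and 327 (cnc) CPM. The mean of single embryos' shares gave 33.0% paternal for oc, and shares without a library ranged from 40.4% to 43.4% (oc), 55.0% to 57.9% (ems), 43.0% to 43.6% (D) and 42.0% to 46.6% (cnc). The causes were not tested. No paired analysis was possible because the 4 samples form a single group and embryos carry no pairing. Depth limits btd most, with a mean of 7.97 CPM.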

Other observations

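Unfertilized eggs outside the order, among those with at least 100000 UMIs, had less cnc than those inside it in most cases. The 7 eggs named U2 had 156 to 591 CPM with a median of 209, and the 8 named U3 had 85.9 to 252 CPM with a median of 159, whereas the 8 eggs inside the order had 733 to 1097 CPM. The 4 eggs named U1 outside the order spread from 88.0 to 996 CPM. exu, which localizes bcd RNA, had medians of 326, 38.8 and 26.0 CPM in the U1, U2 and U3 eggs outside the order, with 12.6 to 1652 CPM in U1. Inside the order it had medians of 1496 CPM in the 5 U1 eggs and 491 CPM in the 3 U2 eggs. bcd itself had medians of 66.9, 95.7 and 96.7 CPM outside and 71.7 and 71.2 CPM inside, in the same order of names. No test was run. oc, ems and D had medians of at most 5.09 CPM in the U1, U2 and U3 eggs outside the order, and btd was 0 in at least the median egg of each name.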
